A study of Arabidopsis thaliana with 6 samples.

Results

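The transcripts described here were high in the octopus mutant of Arabidopsis thaliana and stood at like levels in wild type and in a line overexpressing OCTOPUS. They were chosen by their measured values. A probe set, the group of short oligonucleotides that reads 1 transcript on the Affymetrix ATH1 array, was taken where the lower of the 2 mutant arrays stood at least 0.8 log2 units above the highest of the 4 other arrays and where the overexpressor and wild-type means differed by less than 0.5. Plastid-encoded genes and 10 genes set aside by name were left out, which removed 7 of the 104 probe sets that met the limits. The remaining 97 probe sets are 0.426% of the 22746 on the array that are not controls. Of these, 36 name a single gene, 1 names several and 60 are not listed in the annotation table used, so that the text on single genes concerns 36 transcripts.

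Each of the 6 arrays read amplified, biotin-labelled RNA from whole plants, with 2 arrays for each of 3 groups. The wild type was labelled as the accession Wassilewskija, the mutant line carries the label DYG25 and the overexpressor the label 35SDYG25, the 35S promoter being a viral promoter active in most plant cells. All plants grew untreated on MS/2 medium at 20 °C and 70% hygrometry, and their age, the accession of the overexpressor, the allele of the mutant and the number of independent lines are not in the labels. Nothing in the labels says that the arrays of a group came from separate cultures, so the p-values speak for the spread of these arrays alone, and that spread may be technical.

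OCTOPUS (OPS) is a plasma membrane protein of provascular and phloem cells that promotes the formation of protophloem, the first conducting phloem of a root or leaf. Phloem carries sugars and amino acids from leaves to growing tissue, and SWEET transporters release the sucrose that companion cells load into it. Growing tissue makes ribosomes in the nucleolus, where ribosomal RNA is cut, modified and joined by ribosomal proteins with the help of assembly factors that do not stay in the finished ribosome.

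The OPS probe set read 2.66 and 2.47 in wild type, 2.53 and 2.47 in the mutant and 9.52 and 9.83 in the overexpressor. It therefore checks the label of the overexpressor only, since wild type already stood close to the 25th percentile of an array, which lay at 2.54 to 2.70. RCA, the RuBisCO activase of green tissue, and PYK10, a beta-glucosidase abundant in roots, were both read high in each group, at 13.67 and 12.37 on the first wild-type array. Array controls differed between replicates: the 24 probe sets for the added bacterial poly-A transcripts were all highest on the second wild-type array, by 0.89 to 2.40 log2 units. The 3′ minus 5′ signal of the GAPDH control, often read as a sign of RNA quality, was 1.42 and 1.12 in wild type, 1.80 and 1.39 in the mutant and 1.92 and 1.72 in the overexpressor. The part of these controls in the results was not tested.

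Across the 97 transcripts the mutant mean exceeded the wild-type mean by a median of 1.40 log2 units, or 2.65-fold, with a range of 0.88 to 3.99. Against the overexpressor the median was 1.38, or 2.61-fold, with a range of 0.83 to 4.04. The difference between overexpressor and wild type ranged from -0.48 to 0.47 around a median of 0.01. At least 2-fold differences from both wild type and overexpressor were found for 85 transcripts and at least 4-fold differences for 13. The wild-type mean lay under 4 for 23 transcripts, between 4 and 8 for 62 and at 8 or above for 12, and where a reading was low the size of the fold is limited by background.

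With limma, 79 of the 97 probe sets reached the mean of at least 4 over the 6 arrays that testing required. That mean counts the mutant arrays, so some of the 79 reached it only through their mutant readings. All 79 were called higher than in wild type, where 6.84% of 12363 tested probe sets were called higher. All 79 were also called higher than in the overexpressor, where 9.55% of tested probe sets were. None was called between overexpressor and wild type, where 313 of all 12363 tested probe sets were. In that comparison an unadjusted limma p below 0.05 was found for 1 higher and 2 lower of the 79. These calls follow from how the transcripts were chosen and are given only as a description.

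**Figure D1:**
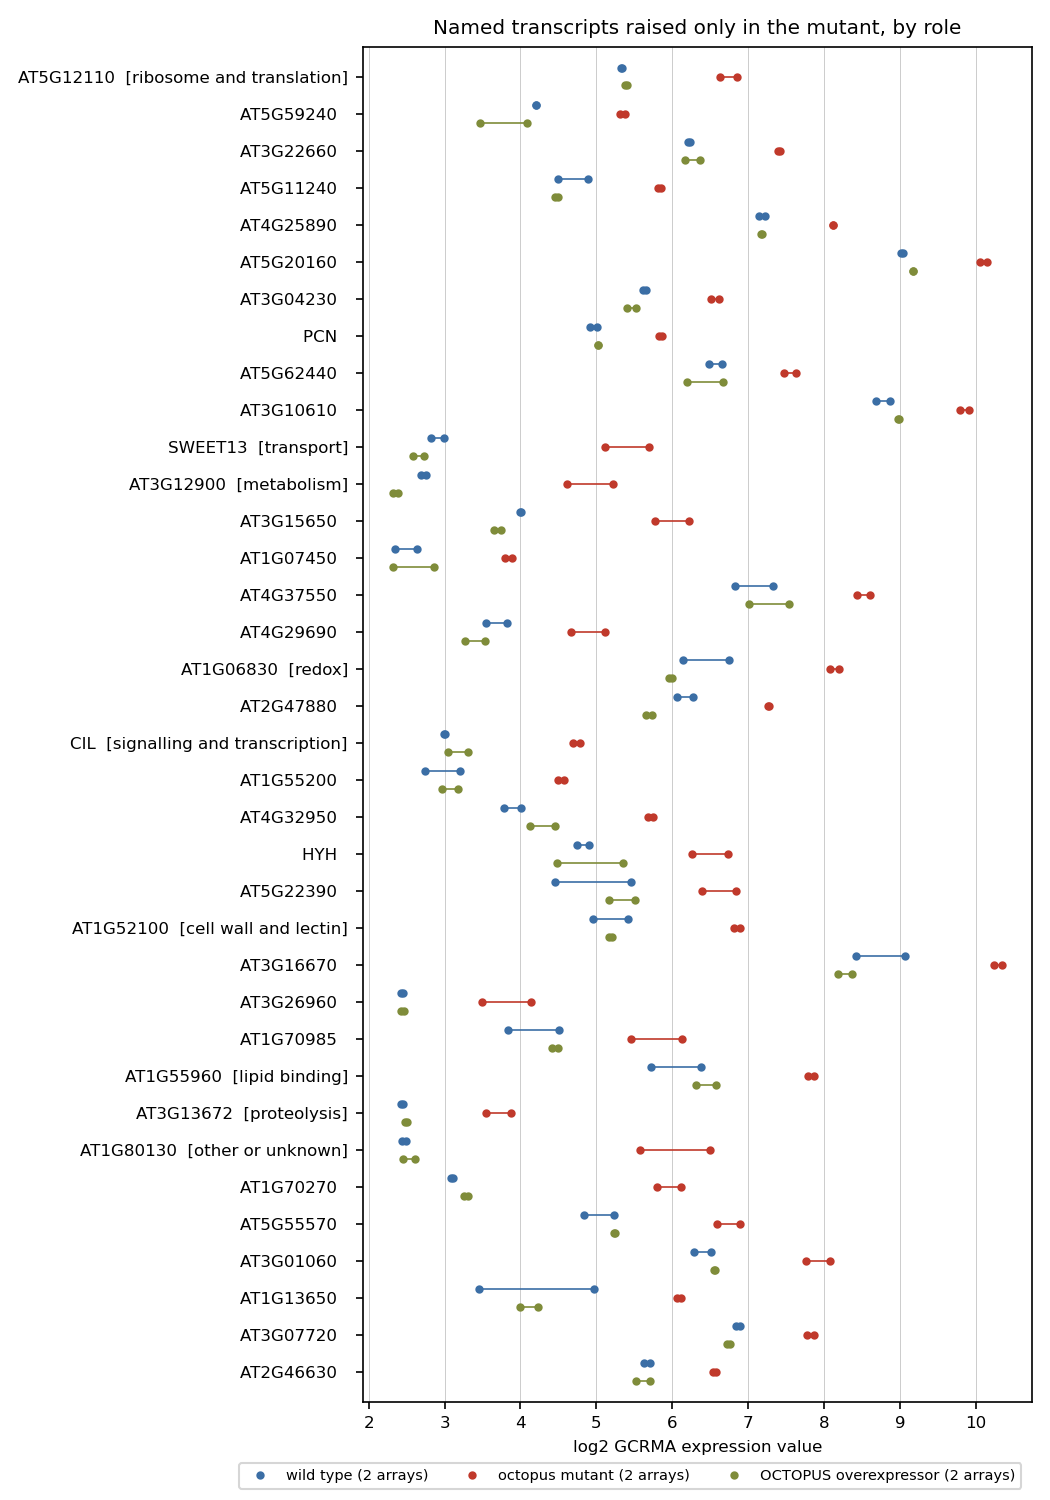
Log2 GCRMA expression value (x axis) of the 36 named transcripts (rows, grouped by role), with 1 point per array and a line joining the 2 arrays of a group. By the choice of the transcripts both mutant points lie to the right of the other 4 in every row; levels of different rows are read by different probes and are not comparable.

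The largest group by role, with 10 of the 36 named transcripts, belongs to the making of ribosomes and to translation. Roles were given to the chosen transcripts alone, so no share over all named genes stands beside this count. The 10 differed from wild type moderately and evenly, from 0.88 to 1.40 with a median of 1.07. All 10 reached the level needed for testing, AT5G59240 only with its mutant readings counted. AT5G12110, a subunit of the elongation factor eEF1B that recharges the factor carrying tRNAs to the ribosome, read 5.34 and 5.33 in wild type, 6.63 and 6.85 in the mutant and 5.40 and 5.38 in the overexpressor. The 4 other arrays lay within 0.07 of each other for this gene, and both mutant arrays lay above them.

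Of the same group, 4 genes encode proteins of the cytosolic ribosome itself. AT5G59240, a gene for the small-subunit protein S8, read 4.2 and 4.2 in wild type, 5.38 and 5.31 in the mutant and 4.08 and 3.46 in the overexpressor. AT3G10610, for the small-subunit protein S17, read 8.87 and 8.68 in wild type, 9.91 and 9.79 in the mutant and 8.98 and 8.99 in the overexpressor. AT3G10610 is among the transcripts that met the gap of 0.8 most narrowly. AT3G04230, for the small-subunit protein S16, exceeded wild type by 0.93, and AT4G25890, for the acidic stalk protein P3 of the large subunit, exceeded it by 0.93 as well.

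The other 5 of the group act in the nucleolus on ribosome precursors. AT3G22660 (EBP2), which in yeast is needed to process the large-subunit ribosomal RNA, read 6.21 and 6.23 in wild type, 7.42 and 7.39 in the mutant and 6.37 and 6.17 in the overexpressor. AT5G11240, a WD-40 repeat protein related to a factor of the small-subunit precursor, read 4.89 and 4.50 in wild type, 5.81 and 5.85 in the mutant and 4.46 and 4.50 in the overexpressor. In both genes the replicate arrays of the mutant lay within 0.04 of each other. AT5G62440 (DOMINO1), a plant nucleolar protein needed for embryo growth, read 6.66 and 6.49 in wild type, 7.47 and 7.63 in the mutant and 6.67 and 6.20 in the overexpressor. A second probe set of AT5G62440, which the choice did not include because its gap was 0.74, read 6.81 and 6.83, then 7.57 and 7.71, then 6.49 and 6.83 in the same order of groups. AT5G20160, of the family of the snoRNA-binding protein SNU13, exceeded wild type by 1.07, and PCN (POPCORN), a nucleolar WD-40 protein of embryo and meristem growth, by 0.88.

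Because genes of this role were the most frequent among the named transcripts, all genes of the same classes that the array reads under a single name were examined. The lists were drawn up after the values were seen, so they are described by counts and medians. Among 213 genes for cytosolic ribosomal proteins, a named probe set was found for 126, from 58 protein families, and 114 reached the level needed for testing. In the mutant 81 of the 114 (71.1%) were called higher than in wild type, where 6.84% of all tested probe sets were. None was called lower, nor had one an unadjusted p below 0.05 in that direction among the 110 outside the chosen transcripts, where 7.2% of all tested probe sets were called lower. Against the overexpressor 92 were called higher, where 9.55% of all tested probe sets were. Between overexpressor and wild type a single one was called, where 313 of all 12363 tested probe sets were. Among the 110 outside the chosen transcripts, 10 were higher and 17 lower in that comparison at an unadjusted limma p below 0.05. The share of all tested probe sets at that unadjusted p is not given here, and the 313 are adjusted calls. Whether the 10 and the 17 exceed such a share was therefore not tested. Both mutant arrays lay above all 4 others for 110 of the 114, a pattern held by 21.1% of all tested probe sets.

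The median difference between mutant and wild type was 0.52 log2 units, or 1.43-fold, with a range of -0.105 to 1.22, while the median over all tested probe sets was -0.01. The overexpressor differed from wild type by a median of -0.05. Small-subunit proteins had a median of 0.54 over 41 probe sets, with 29 called, and large-subunit proteins a median of 0.49 over 73, with 52 called. Without the 4 genes that belong to the chosen transcripts, 77 of 110 were called and the median was 0.51. Of these 110, 88 were called higher than in the overexpressor and 106 had both mutant arrays above all others. The shares over all tested probe sets are those given above. The 2 mutant arrays gave medians of 0.55 and 0.49 above the wild-type mean, and the median distance was -0.02 and -0.05 for the overexpressor arrays.

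Against wild type, single genes of the class ranged from no call to more than 2-fold. AT5G39850, a gene for S9, rose by 1.22 (SE 0.205, limma adjusted p = 0.0125) from 5.64 and 5.27 in wild type to 6.54 and 6.81 in the mutant, with 5.89 and 5.50 in the overexpressor. AT2G37600, for L36, rose by 1.20 (SE 0.118, limma adjusted p = 0.00273) from 6.90 and 6.98 to 8.15 and 8.12, with 7.51 and 7.34 in the overexpressor. At the other end AT4G02230, for L19, differed by -0.105 (limma adjusted p = 0.589) and AT5G48760, for L13a, by 0.005 (limma adjusted p = 0.986). AT5G48760 was low in the overexpressor, at 6.41 and 6.39 against 7.40 and 7.31 in wild type. It was the 1 gene of the class called between overexpressor and wild type, at -0.955 (limma adjusted p = 0.0162). The mutant exceeded the overexpressor by 0.96 for this gene (limma adjusted p = 0.00475). These 4 were chosen after their values were seen, as the ends of the class. The call of AT5G39850 was lost without the second wild-type array or either mutant array (highest limma adjusted p = 0.0936), and that of AT2G37600 with none of the 6 arrays left out.

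Genes for the same ribosomal protein could differ in how they were read. The other named S8 gene, AT5G20290, read 12.65 and 12.80 in wild type, 12.99 and 12.87 in the mutant and 12.76 and 12.98 in the overexpressor, and its difference of 0.205 from wild type was not called (SE 0.104, limma adjusted p = 0.235). The other P3 gene, AT5G57290, differed from wild type by 0.42 (limma adjusted p = 0.144) and from the overexpressor by 0.905 (limma adjusted p = 0.0148), a call lost without either mutant array or the second overexpressor array (highest limma adjusted p = 0.0983). Neither difference between the genes of a pair was tested. Genes for 1 ribosomal protein are often nearly identical in sequence, so a probe set can also bind the transcript of a gene it does not name.

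Ribosome assembly factors were the second class examined. Of 47 listed genes 21 were measured by name with 22 probe sets, of which 15 were called higher in the mutant than in wild type, where 6.84% of all tested probe sets were, and none lower. Against the overexpressor 18 were called higher, where 9.55% of all were, and 21 of 22 had both mutant arrays above all others, where 21.1% of all had. The median difference from wild type was 0.79, and without the 5 probe sets of the chosen transcripts 10 of 17 were called with a median of 0.72. Of these 17, 13 were called higher than in the overexpressor and 16 had both mutant arrays above all others. AT5G08180 (NHP2), of the particle that modifies ribosomal RNA, missed the gap narrowly at 0.77 and read 7.77 and 7.66 in wild type, 8.91 and 8.57 in the mutant and 7.78 and 7.80 in the overexpressor. AT3G03920 (GAR1), of the same particle, rose by 1.07 (SE 0.130, limma adjusted p = 0.00476) and IMP4, of the small-subunit precursor, by 0.91 (SE 0.136, limma adjusted p = 0.00844). The call of AT3G03920 was lost without the first mutant array (limma adjusted p = 0.0572) and that of IMP4 without either mutant array (highest limma adjusted p = 0.0806). PRH75, a nucleolar RNA helicase, was the exception, with a difference of -0.11 (limma adjusted p = 0.667).

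Plastids have ribosomes of their own, and most of their proteins are encoded in the nucleus. Of 31 such genes 7 were measured by name, and none was called in limma in either direction (0 at an unadjusted p below 0.05 as well). Over all tested probe sets 6.84% were called higher and 7.2% lower, so 7 probe sets are too few to set this list apart by its calls. The median difference was -0.12 with a range of -0.225 to 0.065. Of cytosolic elongation factors only AT5G12110 and AT5G19510, another eEF1B gene, were measured by name, and the latter differed by 0.17 (limma adjusted p = 0.246). The array's control probe set for the 25S ribosomal RNA, which is outside the tested probe sets, read 6.42 and 5.86 in wild type, 8.03 and 11.2 in the mutant and 6.28 and 6.61 in the overexpressor. Its part in the readings of the ribosomal genes was not tested.

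The counts for these classes depended on having both arrays of a group. Without the first or the second mutant array 3 and 10 ribosomal protein probe sets were called higher than in wild type, where 0.421% and 0.639% of all tested probe sets were. Without the first or the second wild-type array 32 and 38 were called, where 2.54% and 3.04% of all tested probe sets were, and without a filter on low values 51 of 126, where 2.04% were. In the same fits without a mutant array 1 and 4 assembly factor probe sets were called, without either wild-type array 8, and without a filter 12.

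**Figure D2:**
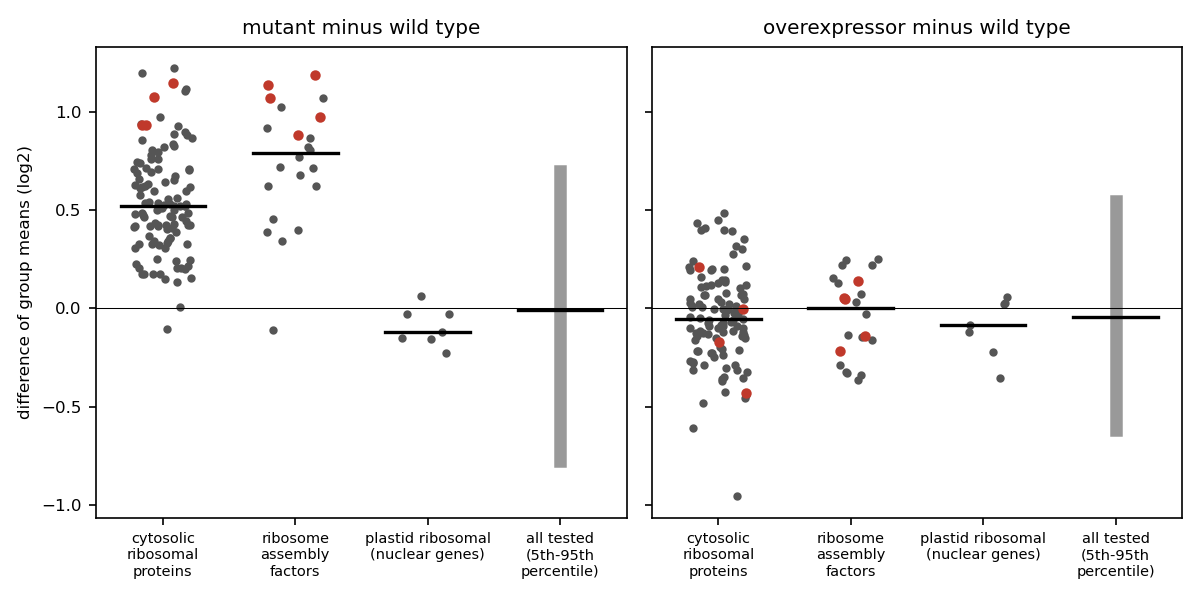
Difference of group means in log2 units (y axis) for the tested probe sets of 3 ribosome-related gene lists, mutant minus wild type on the left and overexpressor minus wild type on the right; 1 point per probe set, red where it belongs to the transcripts raised only in the mutant, with black lines at the medians and a grey bar from the 5th to the 95th percentile of all tested probe sets. Cytosolic ribosomal proteins and assembly factors have medians of 0.52 and 0.79 in the mutant, and the plastid ribosomal proteins -0.12.

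**Figure D3:**
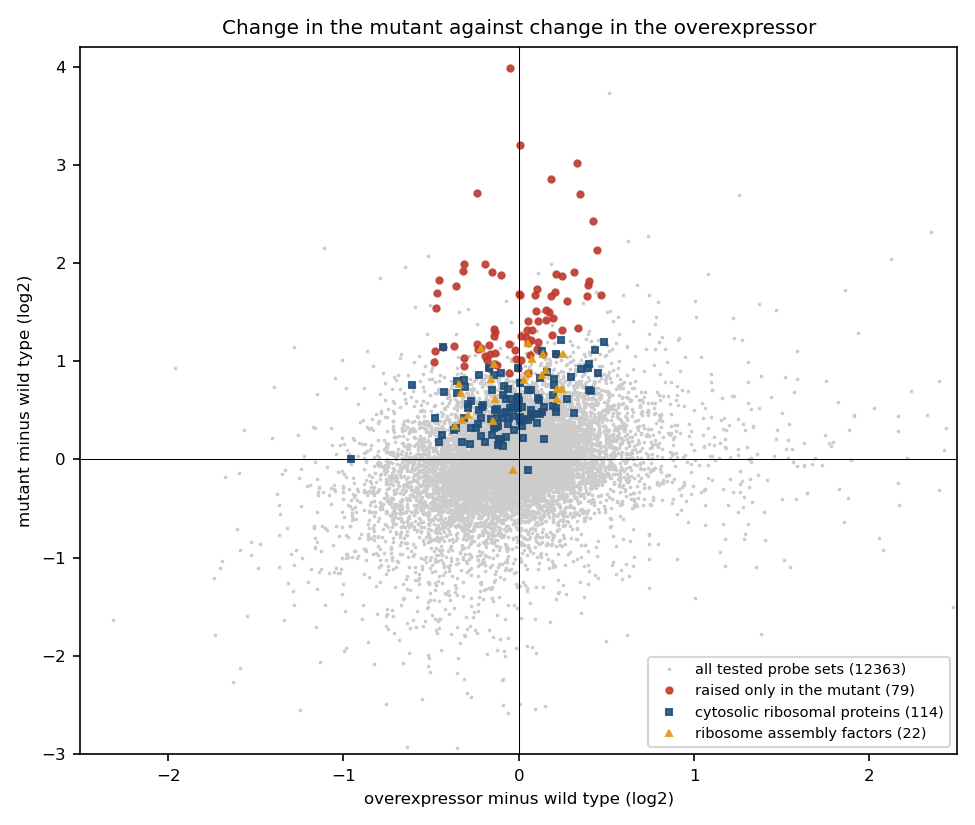
Difference between mutant and wild type (y axis, log2) against difference between overexpressor and wild type (x axis, log2) for 12363 tested probe sets, of which 40 lie outside the axes. Both axes share the wild-type arrays. The 79 tested transcripts raised only in the mutant fill a narrow vertical band by their choice, and most of the ribosomal proteins and assembly factors lie below them in the same band.

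Among transport genes, SWEET13, which encodes a sucrose transporter of the SWEET family, was among the transcripts with the widest gap. It read 2.99 and 2.82 in wild type, 5.12 and 5.69 in the mutant and 2.73 and 2.59 in the overexpressor, a 5.66-fold difference from wild type whose size is limited by the low wild-type reading. The wild-type and overexpressor readings lay near the 25th percentile of all probe sets on an array, and both mutant readings well above it. The family has 17 genes, of which 16 were read by name and 5 were high enough to test. SWEET14, a close relative of SWEET13 and under the level needed for testing, read 2.29 and 2.29 in wild type, 2.80 and 3.75 in the mutant and 2.31 and 2.34 in the overexpressor.

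SWEET11, which exports sucrose for phloem loading, went the other way. It read 10.54 and 10.64 in wild type, 9.67 and 9.95 in the mutant and 10.22 and 10.38 in the overexpressor, and fell by 0.78 against wild type (SE 0.123, limma adjusted p = 0.0102). The call was lost without the second wild-type array (limma adjusted p = 0.0534) and without the first mutant array (limma adjusted p = 0.0851). In whole plants, fewer cells of a type and less RNA per cell cannot be told apart. SWEET2, a vacuolar sugar transporter, differed from the overexpressor by 0.775 (SE 0.165, limma adjusted p = 0.0225) and from wild type by 0.565 (limma adjusted p = 0.0660), and the call against the overexpressor was lost without either mutant array or the second overexpressor array (highest limma adjusted p = 0.136). SWEET11 was the only gene of the phloem marker list that was measured by name, of 12, so the amount of phloem could not be read from these arrays.

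**Figure D4:**
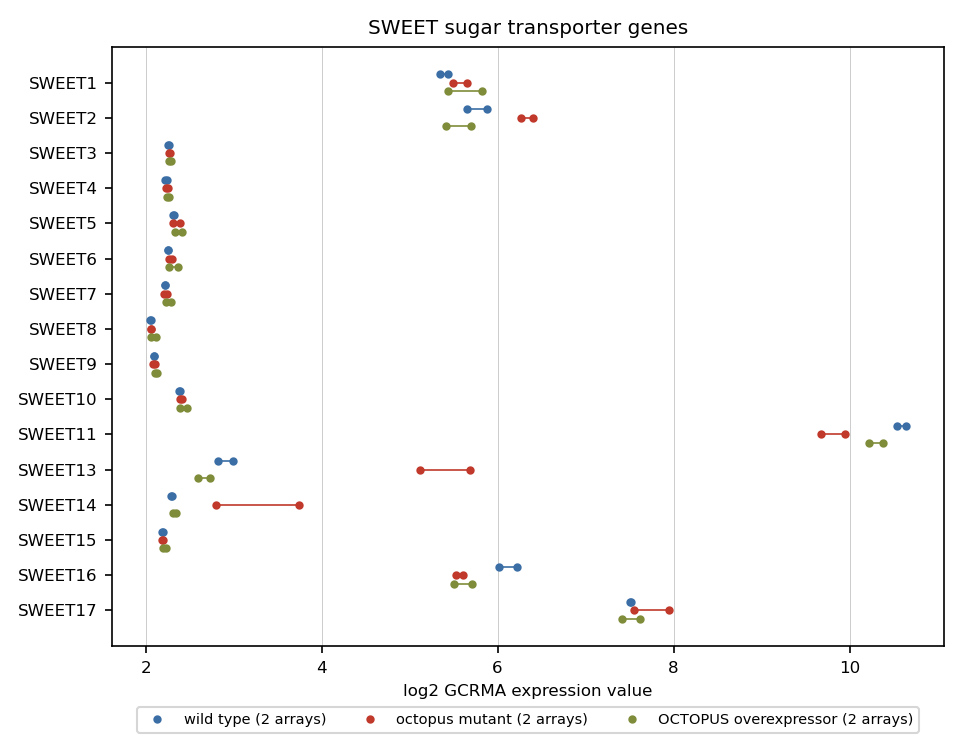
Log2 GCRMA expression value (x axis) of the 16 SWEET genes with a named probe set (rows), with 1 point per array and a line joining the 2 arrays of a group. SWEET2, SWEET13 and SWEET14 are higher in both mutant arrays than in the other 4 and SWEET11 is lower; levels of different rows are read by different probes and are not comparable.

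Metabolic enzymes made up 5 of the named transcripts. AT3G12900 encodes scopoletin 8-hydroxylase, which makes the coumarin fraxetin that roots release to take up iron, and read 2.69 and 2.75 in wild type, 4.61 and 5.22 in the mutant and 2.32 and 2.38 in the overexpressor. AT3G15650, of the alpha/beta-hydrolase family, read 4.01 and 4.0 in wild type, 5.77 and 6.22 in the mutant and 3.65 and 3.74 in the overexpressor. Both had their lowest readings in the overexpressor, though by less than the limit of 0.5 that the choice set. AT1G07450, a short-chain reductase of the tropinone reductase type, read 2.64 and 2.35 in wild type, 3.89 and 3.80 in the mutant and 2.86 and 2.32 in the overexpressor. AT4G37550, an amidohydrolase that releases the hormone auxin from indole-3-acetamide, exceeded wild type by 1.44, and AT4G29690, of the nucleotide pyrophosphatase and phosphodiesterase family, by 1.20. No gene of the fixed list on iron supply was measured by name, so no other iron gene can be set beside AT3G12900.

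Redox genes were represented by a pair of CC-type glutaredoxins, a plant-specific class of small thiol proteins that bind TGA transcription factors. AT1G06830 read 6.14 and 6.75 in wild type, 8.08 and 8.20 in the mutant and 6.00 and 5.96 in the overexpressor. AT2G47880 read 6.06 and 6.28 in wild type, 7.26 and 7.28 in the mutant and 5.66 and 5.73 in the overexpressor. For both, the overexpressor read below both wild-type arrays, and AT2G47880 at -0.475 lay nearest to the overexpressor limit of all named transcripts. Of the 8 other tested CC-type glutaredoxins none was called in limma against wild type (1 at an unadjusted p below 0.05). Their median difference was 0.24, with a range of -1.61 to 0.86. Over all tested probe sets 6.84% were called higher and 7.2% lower.

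Regulators of transcription and signalling numbered 5. HYH, a bZIP factor that acts with its homologue HY5 in the response to light, read 4.90 and 4.75 in wild type, 6.26 and 6.73 in the mutant and 5.35 and 4.48 in the overexpressor. CIL, a relative of the CCT-motif protein CIA2 that activates genes for plastid protein import and plastid ribosomes, read 2.99 and 3.0 in wild type, 4.69 and 4.79 in the mutant and 3.05 and 3.31 in the overexpressor. The wild-type and mutant arrays of CIL each lay within 0.10 of their replicate, whereas the overexpressor arrays of HYH differed by 0.87. AT4G32950, a protein phosphatase 2C, read 4.01 and 3.78 in wild type, 5.74 and 5.68 in the mutant and 4.13 and 4.46 in the overexpressor. AT1G55200, of the protein kinase superfamily, read 2.74 and 3.20 in wild type, 4.50 and 4.57 in the mutant and 2.96 and 3.17 in the overexpressor. AT5G22390, related to the FAF regulators of the shoot meristem, exceeded wild type by 1.66 with wild-type arrays of 4.45 and 5.45.

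Of proteins of the cell wall and of lectins, 4 were found. AT3G16670, whose product belongs to the pollen Ole e 1 and extensin family, read 8.42 and 9.07 in wild type, 10.24 and 10.34 in the mutant and 8.18 and 8.37 in the overexpressor. A second gene of that family, AT3G26960, read 2.45 and 2.43 in wild type, 3.49 and 4.14 in the mutant and 2.43 and 2.46 in the overexpressor. Its wild-type and overexpressor readings lay below the 25th percentile of their arrays. AT1G52100, a jacalin-type lectin, read 4.95 and 5.42 in wild type, 6.82 and 6.89 in the mutant and 5.21 and 5.17 in the overexpressor. AT1G70985, a hydroxyproline-rich glycoprotein, read 3.84 and 4.51 in wild type, 5.45 and 6.13 in the mutant and 4.41 and 4.49 in the overexpressor.

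The named transcript with the widest gap, AT1G80130, encodes a tetratricopeptide repeat protein and read 2.49 and 2.44 in wild type, 5.58 and 6.50 in the mutant and 2.45 and 2.61 in the overexpressor. Next came AT1G70270, for which no role is given here, at 3.11 and 3.08 in wild type, 5.80 and 6.11 in the mutant and 3.31 and 3.25 in the overexpressor. In both genes the 4 other arrays lay within 0.23 of each other. The START-domain lipid-binding protein gene AT1G55960 read 5.72 and 6.38 in wild type, 7.79 and 7.87 in the mutant and 6.31 and 6.58 in the overexpressor. AT3G13672 (SINA2), of a family of ubiquitin ligases, read 2.42 and 2.45 in wild type, 3.54 and 3.87 in the mutant and 2.48 and 2.51 in the overexpressor. Among genes with no role given here, AT1G13650 had the widest spread in wild type, at 3.45 and 4.97, against 6.11 and 6.06 in the mutant and 3.99 and 4.23 in the overexpressor. AT5G55570 read 4.84 and 5.23 in wild type, 6.59 and 6.89 in the mutant and 5.23 and 5.25 in the overexpressor, and AT3G01060 read 6.29 and 6.51, then 7.76 and 8.08, then 6.55 and 6.56. The kelch-repeat gene AT3G07720 exceeded wild type by 0.96 and AT2G46630 by 0.88.

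The 61 probe sets that do not name a single gene exceeded wild type by a median of 1.34, from 0.95 to 3.99, and 52 of them were tested. The widest gap of all transcripts, 3.20, was that of an unnamed probe set that read 4.36 and 5.11 in wild type, 8.31 and 9.14 in the mutant and 4.63 and 4.74 in the overexpressor. Its difference of 3.99 from wild type, or 15.9-fold, could not be assigned to a gene here.

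The limits of the choice cut through a continuous range. Just outside the gap, besides AT5G08180, were the cytochrome P450 gene AT3G44970 with a gap of 0.79 and AT4G21870, of the small heat shock protein family, with 0.77. A further 18 probe sets met the gap but passed the overexpressor limit. Nearest to that limit was AT1G73600, of the phosphoethanolamine N-methyltransferases that make phosphocholine, at -0.515, with 8.47 and 8.28 in wild type, 10.37 and 10.53 in the mutant and 8.03 and 7.69 in the overexpressor. AT1G32190 passed it at 0.52 and AT2G48080 at -0.525. The same rule turned round took 135 probe sets lowered only in the mutant, and for the overexpressor it took 150 raised and 14 lowered only there.

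The members of the set were also chosen anew without each array, and the array left out was then read. Chosen without the first mutant array, 201 probe sets met the limits, and the first mutant array lay above the highest other array in 192 of them and by the full 0.8 in 97, with a median gap of 0.76. Chosen without the second, 165 met them, and that array lay above in 159 and by the full gap in 97, with a median of 0.88. In both cases the 97 are the chosen transcripts themselves, since a probe set with the full gap on both mutant arrays meets the rule. These counts are therefore a description and no separate check of the choice. The second mutant array was the higher of the pair for 67 of the 97 transcripts, or 69.1%, against 52.6% of all tested probe sets. The median absolute difference between replicates of the 97 was 0.22 for the wild-type pair, 0.16 for the mutant pair and 0.19 for the overexpressor pair, where it was 0.15, 0.14 and 0.19 over all tested probe sets; the choice of the 97 used these same arrays.

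The named transcripts lay on all 5 nuclear chromosomes. Chromosomes 1 to 5 held 9, 2, 11, 6 and 8 of the 36, or 25%, 5.56%, 30.6%, 16.7% and 22.2%, where 25.8%, 16.4%, 20.6%, 14.6% and 22.6% of the measured named genes lie. The closest pair in gene order was AT4G25890 and CIL on chromosome 4, with 4 measured named genes between them. No tests were made of these shares.

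None of the 36 belonged to the 22 gene lists drawn up for metabolism, hormones, nutrients, light and cell types. Of the 245 genes of those lists 31 were measured by name and 21 were tested, so they covered few of the pathways they stand for. Besides SWEET11, 4 of the 21 were called in limma against wild type. With SWEET11 counted, 3 of the 21 were called higher and 2 lower, where 6.84% and 7.2% of all tested probe sets were. AT1G73600 rose by 2.07 (SE 0.146, limma adjusted p = 0.00122). BCAT4, of methionine chain elongation for glucosinolates, rose by 0.90 (SE 0.191, limma adjusted p = 0.0258), with 8.63 and 8.33 in wild type, 9.36 and 9.40 in the mutant and 8.25 and 7.71 in the overexpressor. The call of BCAT4 was lost without any 1 of the wild-type and mutant arrays (highest limma adjusted p = 0.145). PPDK, pyruvate orthophosphate dikinase, rose by 2.04 (limma adjusted p = 0.00224) but stood as high in the overexpressor, at 6.24 and 6.39 against 6.23 and 6.23 in the mutant. GID1A, a gibberellin receptor, fell by 1.23 (SE 0.191, limma adjusted p = 0.00981), a call lost without the second wild-type array (limma adjusted p = 0.0543) and without the first mutant array (limma adjusted p = 0.0869). Against the overexpressor, AT2G31790, a glucosyltransferase of glucosinolate synthesis, differed by 0.57 (limma adjusted p = 0.0390) and PYK10 by 0.375 (limma adjusted p = 0.0395). The call of AT2G31790 was lost without any 1 of the 6 arrays (highest limma adjusted p = 0.210), and that of PYK10 without either mutant array or the second overexpressor array (highest limma adjusted p = 0.221).

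Of the 46 genes listed as markers of phloem, xylem, root, stomatal lineage, trichome, seed and flower, 7 were measured by name and 5 tested. SWEET11 apart, none of these was called in limma between mutant and wild type, and 1 had an unadjusted p below 0.05. Over all tested probe sets 6.84% were called higher and 7.2% lower. The root hair expansins EXPA7 and EXPA18 differed by -0.425 and -0.19 (limma adjusted p = 0.206 and 0.483), and the guard cell factor FMA by -0.485 (limma adjusted p = 0.155). The part of the cell types' shares in the chosen transcripts was not tested.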

How the data were processed

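For each of 6 ATH1 arrays the authors deposited GCRMA expression values of the probe sets, which are on a log2 scale judged by their range. The method is named per the submitters' processing notes, without a version. It removes a background estimated from the base content of the probes, equalises the arrays and combines the probes of each set. The sources used here do not say which arrays were normalised as 1 set. No detection calls were used, and the number of arrays limits the precision. Background removal affects low readings most.

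The 97 transcripts and all gene lists were chosen with earlier results of these data known, and the lists on ribosomes, SWEET transporters, glutaredoxins and elongation factors after values of the chosen transcripts were seen. Names came from the annotation table of the platform: 13513 of 22810 probe sets name 1 gene, 503 several and 8794 none, and 13436 matched the TAIR10.1 annotation for symbols and gene order. No coordinates or sequences are printed.

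Tests used limma 3.58.1 in R 4.3.3 (lmFit, eBayes with trend, two-sided) on the 12363 probe sets whose mean over the 6 arrays was 4 or more, leaving out the 64 control probe sets. All 6 arrays entered 1 fit of 3 groups without covariates, with 3 residual degrees of freedom and 3.98 prior ones. A call is a Benjamini-Hochberg adjusted p below 0.05 within a comparison, over all tested probe sets. The fit was tested on simulated data. No p is given for any single chosen transcript, since all 6 arrays chose them, and the counts of their calls are a description only. Values on each array are given for the 25 named transcripts with the widest gap and those nearest the limits. Of list genes outside the choice, up to 4 that were called are named per list. Replicate numbers are shared between groups, but differences between same-numbered arrays correlated at -0.24 (wild type and mutant), 0.156 (wild type and overexpressor) and -0.305 (mutant and overexpressor), so the arrays were not treated as pairs. Summaries and plots used Python 3.11.15, pandas 2.3.3 and matplotlib 3.10.9.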

Additional observations from a re-analysis of the deposited data

Results flagged for a closer look

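Among the control probe sets, which entered no comparison, some stood well above the other 4 arrays in both mutant arrays. The control for the 25S ribosomal RNA read 8.03 and 11.2 in the mutant, and its lower mutant array stood 1.43 log2 units above the highest other array. The mutant arrays of this control lay further apart than that. A further Arabidopsis control probe set, whose target the tables used here do not name, read 4.81 and 4.84 in the mutant against 1.97 on both wild-type arrays, and the overexpressor arrays gave 1.97 and 2.00, a gap of 2.81. The groups of 2 arrays are too small for a test of single outlying arrays.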

How the results depend on the processing

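With 2 arrays per group the counts of calls moved with single arrays, and low readings near background limit folds. The number of chosen transcripts was 97; it became 227 at a gap of 0.6 and 53 at a gap of 1, and ran from 102 to 201 with single arrays left out. Added quantile normalization gave 96, of which 90 were among the 97. Against wild type 1736 probe sets were called, and 1009 without a filter on low values, which tests more probe sets; with single arrays left out the count ran from 167 to 1807. Against the overexpressor it was 2269, and 363 to 1931 with single arrays left out. Between overexpressor and wild type it was 313; it became 191 at a mean of at least 6, 118 with the replicate block, 771 with the crossed block and 75 with only the 4 arrays compared, and 57 to 373 with single arrays left out. With the replicate number as a block, 65 ribosomal protein and 12 assembly factor probe sets were called higher than in wild type. Over all tested probe sets 4.47% were. The same block gave 1166 probe sets called against wild type and 1579 against the overexpressor. With the mutant's numbers exchanged, a fit chosen after seeing the data, the counts were 2335 and 2972. Of the genes of the 22 lists 5 were called, 3 higher and 2 lower, and fewer with some single arrays left out. Over all tested probe sets 6.84% were called higher and 7.2% lower. Ribosomal protein probe sets called higher numbered 81, and 51 without a filter and 3 to 85 with single arrays left out; assembly factors numbered 15, and 1 to 15. Of the 27 named transcripts that were tested, most lost their call against wild type in at least 1 planned fit. Fewer of them lost the call against the overexpressor. Those calls follow from how the transcripts were chosen, so their stability is a description and no check of the choice. No value of a named gene changed sign past the threshold. Counts of motifs in promoters were not run because no sequence table was at hand.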
